A study of Rattus norvegicus with 23 samples.

Results

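Genes that stretch over 500 kb or more of the rat genome were examined in RNA-seq counts from the dorsal striatum (dSTR) of rats that had self-administered methamphetamine (METH). The span of a gene is the distance from its first to its last annotated base, introns included, on the Rnor6.0 build used in the count files. Of 32552 genes in the files, 117 had a span of at least 500 kb. Of these, 109 reached a CPM (the count of a gene scaled to a common library size) of at least 1 in at least 5 of the 23 libraries and form the set described below, the long genes. The other 8 stayed under that minimum, 1 of them with 0 counts in every library. The choice used the span and this minimum level, and no difference between groups.

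All 23 rats were adult wild type Long Evans rats, with 1 library per rat. The CT group (n = 6) self-administered saline and received no footshocks. The other groups self-administered METH at 0.1 mg/kg per infusion for 22 days of training, followed by 8 punishment days on which footshocks of 0.18 mA, raised to 0.36 mA, accompanied 50% of the reinforced presses, and by 15 days of forced abstinence. A second self-administration phase of 12 days, 3 days of punishment at 0.30 mA and a second abstinence of 15 days completed the schedule. The ASR rats (n = 6) kept pressing through both punishments, the DSR rats (n = 5) cut their pressing in the first punishment but not in the second, and the AS rats (n = 6) cut it in both. The METH groups were thus formed from the rats' own behavior and were not assigned at random.

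Transcription of a gene starts at its promoter and proceeds at a limited speed, so that a long gene keeps its polymerase on the template for hours, and most of the primary transcript is intron that splicing removes. In the mammalian brain the longest genes are, as a class, rich in genes for neuronal adhesion molecules, ion channels, receptors and synaptic scaffolds. Expression of long neuronal genes is known to depend on topoisomerases, which relieve the torsion that builds up in the template. The files list Ensembl identifiers and do not pair them with gene symbols. The roles of the individual long genes, and the neuronal, glial and striatal markers of these samples, could therefore not be read from these data.

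The shortest of the 109 long genes spanned 500081 bp, and the longest expressed gene left out spanned 499516 bp. Their median span was 653418 bp (quartiles 560874 and 844012 bp), and 15 of them spanned 1 Mb or more. Most of that length was intron. The exons of a long gene covered a median of 4375 bp in 23 separate blocks, compared with 2365 bp in 9 blocks for the other 14683 expressed genes, and the exons made up a median of 0.623% of the span in long genes and 11.7% in the others. The longest intron had a median of 166188 bp in long genes and 6565 bp in the others. In 98 of the 109 long genes the longest intron took at most 50% of the span, and in the remaining 11 a single intron took more than that.

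The long genes lay on 21 chromosomes, with 14 on chromosome 2, 13 on chromosome 4, 11 on chromosome 1 and 5 on the X chromosome, and 67 were on the plus strand and 42 on the minus strand. Only 9 of them lay within 1 Mb of another long gene. At least 1 other annotated gene lay wholly inside the span of 69 long genes. Counting was by exons, and 7 long genes shared exon sequence with another gene, so that their counts are less certain than those of the other 102. The labels do not state that the library kit or the counting kept the strand, and reads from genes that overlap on opposite strands cannot then be told apart.

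By level, the long genes resembled the other expressed genes. Their mean CPM had a median of 23.3 compared with 21.7 for the other expressed genes, with a range from 1.52 to 650.2, and 105 of the 109 were at 1 CPM or above in all 23 libraries. Per kb of exon their level had a median of 5.58 CPM per kb, compared with 9.35 in the other genes. The longest of them was annotated at chr15:87506959-93868301 (minus strand), a span of 6361343 bp of which 6137679 bp are a single intron, with 34 other genes inside the span and exon sequence shared with another gene. It averaged 245.7 CPM. The next in length ran for 2232523 bp at chrX:51286737-53519259 (plus strand), with exons of 13961 bp in all. The long gene with the highest level, both in CPM and per kb of exon, lay at chr7:50084060-50638798 (minus strand) and averaged 650.2 CPM.

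The library totals ranged from 18967015 to 28137676 counts. Every DSR library was deeper than every AS library, so that depth and group cannot be told apart in that comparison, and values from libraries thinned to the smallest total are given with it below. Mitochondrial genes took 11.6 to 19.6% of the counts, with the highest share in AS replicate 2. By the labels, every library is from a different rat. The sample titles carry the number 7 or 8, which the labels do not explain, and values within each number are given beside the pooled ones. In tissue RNA, fewer cells of a type and less RNA per cell cannot be told apart.

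The share of a library taken by the 109 long genes did not overlap between DSR and AS rats. In CT rats the long genes took 0.514 to 0.719% of the library (median 0.603%) and in ASR rats 0.524 to 0.641% (median 0.565%). In DSR replicates 1 to 5 the shares were 0.587, 0.713, 0.647, 0.576 and 0.597%. In AS rats they were 0.471 to 0.575% (median 0.525%). All 5 DSR rats were above all 6 AS rats, the closest pair being 0.576% in DSR replicate 4 and 0.575% in AS replicate 1, while the CT rats spread across both. When mitochondrial counts were left out of the total, the lowest DSR share was 0.662% and the highest AS share 0.653%. These shares weight the most abundant long genes most heavily.

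**Figure D1:**
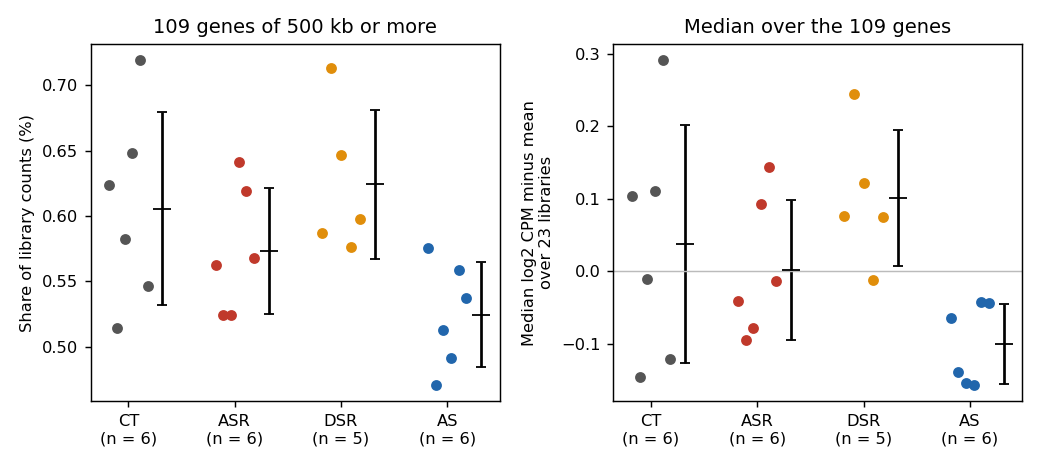
Long genes in each rat. Left, the share of library counts (%) taken by the 109 genes spanning 500 kb or more; right, the median over these genes of log2 CPM minus the gene's mean over the 23 libraries. Dots are single rats in the CT, ASR, DSR and AS groups, and the bars give the mean ± SD of each group. The DSR shares sit between 0.576 and 0.713% and the AS shares between 0.471 and 0.575%, while the CT rats spread from 0.514 to 0.719%.

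A second measure gave each long gene the same weight. For each library, the median over the 109 genes of log2 CPM minus the gene's mean over the 23 libraries was taken. It was -0.01 to 0.24 in DSR rats, -0.16 to -0.04 in AS rats, -0.09 to 0.14 in ASR rats and -0.15 to 0.29 in CT rats. The DSR and AS ranges did not overlap. The CT group was the most spread, with CT replicate 5 at 0.29 and CT replicate 2 at -0.15. In the same libraries, genes under 10 kb deviated only from -0.05 to 0.06. The scaling of the libraries (TMM) rests on the bulk of the genes, most of which are short. A small deviation of short genes is therefore partly fixed by that scaling. The DSR and AS ranges were also apart at 200 to 500 kb (lowest DSR rat 0.0067, highest AS rat -0.026). At 100 to 200 kb they were apart too (0.013 and -0.0082). At 10 to 50 CPM the median SD between rats of a group was 0.25 on the log2 scale for long genes and 0.14 for genes under 10 kb, and at 50 CPM or more it was 0.20 and 0.12, whereas under 10 CPM the medians were 0.32 and 0.33. At 10 to 50 CPM the SD was 0.17 for genes of 100 to 200 kb and 0.21 for those of 200 to 500 kb. At 50 CPM or more these were 0.14 and 0.17.

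**Figure D2:**
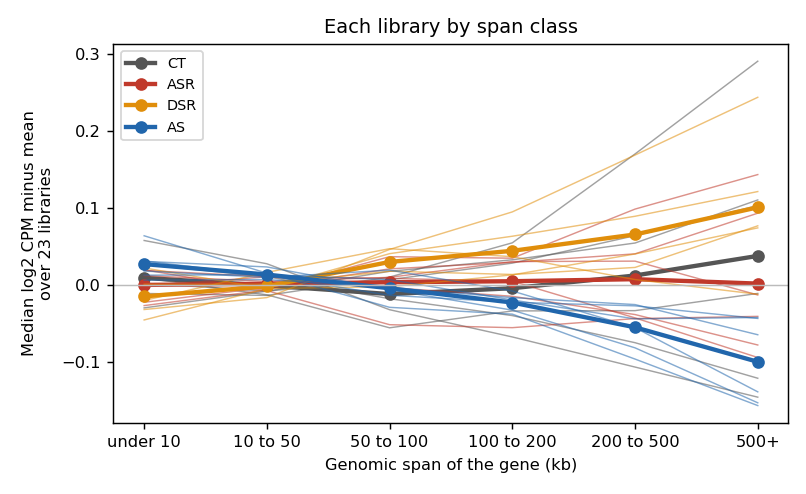
Deviation of each library by gene span. The vertical axis is the median over the genes of a span class of log2 CPM minus the gene's mean over the 23 libraries, the horizontal axis the span class in kb; thin lines are single libraries and thick lines group means. The libraries lie within -0.05 to 0.06 for genes under 10 kb and spread from -0.16 to 0.29 for genes of 500 kb or more, where the 5 DSR lines lie above the 6 AS lines. The DSR lines also lie above the AS lines at 100 to 200 kb and at 200 to 500 kb.

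The comparison of AS with CT rats asks how rats that reduced METH taking under punishment differed from rats that never took it. Many long genes were lower in AS rats. Of the 109 long genes, 34 were lower in AS rats at an unadjusted p under 0.05 (31.2%, compared with 11.8% of all 16275 genes tested in that direction) and 3 were higher (2.75%, compared with 9.63%). The median log2 fold change was -0.11 for the long genes and 0.02 for all genes tested, and 74 of the 109 long genes were negative. Without CT replicate 6 the median of the long genes was -0.19, and without CT replicate 5 it was -0.09. The 34 lower genes lay on 17 chromosomes and had log2 fold changes from -1.70 to -0.15 (median -0.46). In 13 of them the change was at least 1.5-fold (11.9%, compared with 2.71% of all genes tested in that direction), and 0 long genes were 1.5-fold higher (1.82% of all genes tested).

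None of these differences passed the correction for the number of genes. With the edgeR quasi-likelihood test and Benjamini-Hochberg correction, 0 of the 109 long genes reached an adjusted p under 0.05 (37 at an unadjusted p under 0.05, or 33.9%, compared with 21.4% of all genes tested), and the smallest adjusted p among them was 0.0615. With DESeq2 on all groups 18 long genes passed (5.62% of all genes with an adjusted p, in either direction), 17 of them lower in AS rats. With DESeq2 on the 2 groups 20 passed (5.5% of all genes, in either direction), 19 of them lower. The edgeR count rested on single rats. Without CT replicate 2, 27 long genes had an adjusted p under 0.05 (8.47% of all genes tested, in either direction), 26 of them lower. Without AS replicate 1, 25 had (7.99% of all genes tested, in either direction), 24 of them lower. Within title number 7 (4 AS and 4 CT rats) the median difference of the long genes was -0.13, and within title number 8 (2 and 2 rats) it was -0.06.

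The same rats stood at the edge of their group in most of the lower genes. Among the 34 genes, AS replicate 1 was the highest AS rat in 26, CT replicate 2 was the lowest CT rat in 29 and CT replicate 5 was the highest CT rat in 26. In 2 of the 109 long genes every AS rat was below every CT rat (0.393% of all genes tested did so). In none was every AS rat above every CT rat (0.43% of all genes), and in the rest the groups overlapped.

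The 2 long genes with the smallest p in AS vs CT were ENSRNOG00000032206 and ENSRNOG00000045639. ENSRNOG00000032206 spans 912075 bp at chr13:21678512-22590586 (plus strand), with exons of 3921 bp, and was among the least abundant long genes. Its level was 1.00 to 2.78 CPM in CT rats (median 1.99), 0.97 to 2.68 in ASR rats (median 1.55) and 0.57 to 1.04 in AS rats (median 0.83), and in DSR replicates 1 to 5 it was 1.67, 3.13, 2.22, 0.92 and 1.85 CPM. The AS rats were the lowest group, and of the CT rats only CT replicate 2 fell within the AS range. The log2 fold change in AS vs CT was -1.26 (standard error 0.28), with a Benjamini-Hochberg adjusted p = 0.0615 in the edgeR quasi-likelihood test. On log2 CPM the two-sided exact permutation test gave p = 0.00433, for a gene that was picked for its small p. The AS libraries held 12 to 24 counts of this gene, and its values carry counting error of that order.

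ENSRNOG00000045639 spans 558402 bp at chr2:4195917-4754318 (plus strand), with no other gene inside. Its level was 7.65 to 11.7 CPM in CT rats (median 8.91), 6.50 to 8.16 in ASR rats (median 7.46) and 5.92 to 7.56 in AS rats (median 7.02). In DSR replicates 1 to 5 it was 8.15, 8.96, 8.41, 8.63 and 9.56 CPM. Every AS rat was below every CT rat and below every DSR rat, with a small gap to the nearest CT rat. The log2 fold change was -0.43 in AS vs CT (standard error 0.10, edgeR quasi-likelihood test, Benjamini-Hochberg adjusted p = 0.0615) and -0.31 in ASR vs CT (standard error 0.10), where it was the only long gene that was lower at an unadjusted p under 0.05.

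The largest difference in AS vs CT was in a gene at chr10:80790168-81296363 (plus strand), with a span of 506196 bp and exons of only 1014 bp. It stood at 2.26 to 4.75 CPM in 5 of the AS rats and at 14.2 CPM in AS replicate 1, compared with 6.61 to 25.5 CPM in CT rats. The log2 fold change was -1.70 (standard error 0.49). The most abundant long gene, on chromosome 7, stood at 394.1 to 520.1 CPM in 5 of the AS rats and at 747.4 CPM in AS replicate 1, compared with 526 to 982.9 CPM (median 702.5) in CT rats, a difference of -0.54 on the log2 scale (standard error 0.15). In both genes AS replicate 1 was within the CT range and the other AS rats were below it.

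The 3 long genes that were higher in AS rats went against the rest. They were chosen for this description after their values were seen. ENSRNOG00000053406 had the smallest p of them and spans 1028867 bp at chr11:61605937-62634803 (plus strand), of which 920063 bp are a single intron. Its level was 4.09 to 5.82 CPM in CT rats (median 4.80), 4.87 to 6.47 in ASR rats (median 6.02) and 5.66 to 7.29 in AS rats (median 6.23), and in DSR replicates 1 to 5 it was 5.21, 4.38, 6.23, 6.14 and 4.46 CPM. The AS rats lay above the CT rats except for an overlap around 5.7 CPM. The log2 fold change in AS vs CT was 0.41 (standard error 0.11, edgeR quasi-likelihood test, Benjamini-Hochberg adjusted p = 0.0694). The other two, with spans of 1011888 bp on chromosome 9 and 514227 bp on chromosome 1, differed by 0.47 (standard error 0.16) and 0.25 (standard error 0.11) on the log2 scale. In DSR vs AS, which shares the AS rats, these genes gave -0.34 (standard error 0.16) and -0.25 (standard error 0.11). In ASR vs CT, ENSRNOG00000053406 gave 0.28 (standard error 0.11) and the gene on chromosome 9 gave 0.34 (standard error 0.16). These were the 2 long genes that were higher in ASR than in CT rats at an unadjusted p under 0.05.

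**Figure D3:**
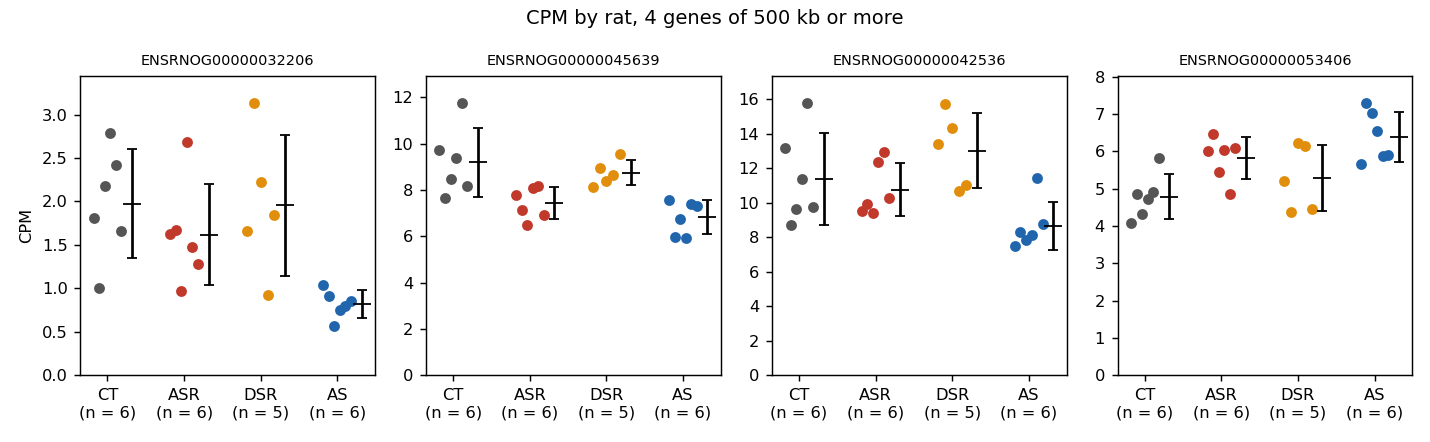
CPM by rat of the 4 long genes given by identifier. Dots are single rats, the bars give the mean ± SD of each group, and every vertical axis starts at 0 CPM. In ENSRNOG00000032206 the AS rats sit between 0.57 and 1.04 CPM, in ENSRNOG00000045639 between 5.92 and 7.56 and in ENSRNOG00000042536 between 7.52 and 11.4, whereas in ENSRNOG00000053406 they sit between 5.66 and 7.29 CPM, mostly above the CT rats.

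The comparison of DSR with AS rats sets rats that resumed pressing under the second punishment against rats that stopped again. Of the 6 comparisons it held the largest shift of the long genes. Of the 109 long genes, 43 were higher in DSR rats at an unadjusted p under 0.05 (39.4%, compared with 13.3% of all genes tested in that direction) and 6 were lower (5.5%, compared with 12%). The median log2 fold change was 0.20 for the long genes and -0.01 for all genes tested, and 91 of the 109 long genes were positive. The 43 higher genes lay on 17 chromosomes and ranged from 0.19 to 1.5 on the log2 scale (median 0.47). At least 1.5-fold changes were found in 14 higher genes (2.75% of all genes tested) and in 1 lower gene (2.49% of all genes tested).

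Here too the correction left none. With the edgeR quasi-likelihood test and Benjamini-Hochberg correction, 0 of the 109 long genes reached an adjusted p under 0.05 (49 at an unadjusted p under 0.05, or 45.0%, compared with 25.3% of all genes tested), and the smallest adjusted p among them was 0.0993. With DESeq2 on all groups 16 long genes passed (5.07% of all genes with an adjusted p) and with DESeq2 on the 2 groups 32 passed (11.8% of all genes), all of them higher in DSR rats. Without DSR replicate 4, 31 long genes passed in the edgeR test (11.9% of all genes tested, in either direction), 27 of them higher in DSR rats. Without AS replicate 1, 22 passed (5.56% of all genes tested, in either direction), all of them higher. Without DSR replicate 2, the number at an unadjusted p under 0.05 was 28 (14.5% of all genes tested). The 15 long genes with 1.5-fold changes (13.8%) became 4.59% of the long genes without DSR replicate 2 (2.87% of all genes tested), 8.26% without AS replicate 5 (4.69%) and 21.1% without DSR replicate 4 (8.82%).

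Among the 43 higher genes, DSR replicate 2 was the highest DSR rat in 38, DSR replicate 4 was the lowest DSR rat in 34 and AS replicate 1 was the highest AS rat in 28. In 3 long genes the lowest DSR rat exceeded the highest AS rat (1.48% of all genes tested did so), and in 0 the groups were separated the other way (0.995% of all genes). Within title number 7, where the DSR rats were replicates 1 and 2 against 4 AS rats, the median difference of the long genes was 0.38, and within title number 8 (3 DSR and 2 AS rats) it was 0.07. The shift was thus in the same direction in both and much smaller in the second. With all libraries thinned to the smallest total, 50 long genes had an unadjusted p under 0.05 (25.2% of all genes tested) and the median log2 fold change was 0.22, and with mitochondrial genes left out the values were 48 (25.3%) and 0.20.

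ENSRNOG00000042536, at chr2:40554146-41464264 (plus strand) with a span of 910119 bp, was among the long genes that were higher in DSR rats. Its level was 13.4, 15.7, 14.3, 10.7 and 11 CPM in DSR replicates 1 to 5 and 7.52 to 11.4 CPM in AS rats (median 8.21). In CT rats it was 8.69 to 15.8 CPM (median 10.6) and in ASR rats 9.37 to 12.9 CPM (median 10.1). All DSR rats were above 5 of the AS rats, and only AS replicate 5, at 11.4 CPM, reached the DSR range. Relative to AS rats its log2 fold change was 0.59 in DSR rats (standard error 0.15, edgeR quasi-likelihood test, Benjamini-Hochberg adjusted p = 0.0993). ENSRNOG00000032206 and ENSRNOG00000045639 had log2 fold changes of 1.25 (standard error 0.29) and 0.36 (standard error 0.10) in this comparison, and ENSRNOG00000053406 one of -0.27 (standard error 0.12).

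The longest gene by annotation, on chromosome 15, was also higher in DSR than in AS rats. Its level was 249.8, 303, 260.1, 238.5 and 269.6 CPM in DSR replicates 1 to 5 and 214.1 to 244.1 CPM in AS rats (median 226.2). Only DSR replicate 4 was below an AS rat. The log2 fold change was 0.22 (standard error 0.06) in DSR vs AS and -0.16 (standard error 0.06) in AS vs CT. The second longest, on the X chromosome, stood at 51.7, 71.4, 69.7, 70.3 and 56.5 CPM in DSR replicates 1 to 5 and at 49.5 to 64.3 CPM in AS rats (median 53.7), a log2 fold change of 0.19 (standard error 0.08) with overlapping groups. In AS vs CT this gene gave -0.10 (standard error 0.08, unadjusted p = 0.215 in edgeR's quasi-likelihood test).

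Of the 6 long genes that were lower in DSR than in AS rats, the largest difference was in a gene at chr13:106751625-107427329 (plus strand), with a span of 675705 bp and a log2 fold change of -0.88 (standard error 0.38). Its level was 3.48, 1.06, 6.58, 6.26 and 1.73 CPM in DSR replicates 1 to 5 and 4.76 to 9.50 CPM in AS rats. The groups overlapped, and the lowest DSR library held 27 counts of this gene.

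The comparison of ASR with AS rats, both shocked METH groups with opposite responses to punishment in either phase, showed a smaller shift in the same direction as DSR vs AS. Of the 109 long genes, 21 were higher in ASR rats at an unadjusted p under 0.05 (19.3%, compared with 5.15% of all genes tested in that direction) and 2 were lower (1.83%, compared with 3.5%). The median log2 fold change was 0.11, compared with -0.01 for all genes tested, and 81 of the 109 long genes were positive. In 4 genes the change was at least 1.5-fold and higher (1.28% of all genes tested), and in 0 it was 1.5-fold and lower (0.473% of all genes tested). With the edgeR quasi-likelihood test and Benjamini-Hochberg correction, 0 long genes reached an adjusted p under 0.05 (23 at an unadjusted p under 0.05, or 21.1%, compared with 8.65% of all genes tested), with a smallest adjusted p of 0.571, and DESeq2 gave 0 on all groups (0% of all genes) and on the 2 groups (0.106%). The 23 genes became 13 without AS replicate 3 (5.85% of all genes tested), 14 without AS replicate 4 (5.78%), 15 without AS replicate 5 (8.42%), 14 without ASR replicate 1 (6.11%) and 14 without ASR replicate 4 (6.33%). The 1.5-fold changes, 3.67% of the long genes, became 11% without AS replicate 1, 7.34% without ASR replicate 2 or 3, 6.42% without ASR replicate 6, and 1.83% without AS replicate 3, ASR replicate 1 or ASR replicate 4. The median difference was 0.05 within title number 7 and 0.12 within title number 8. This comparison, DSR vs AS and AS vs CT share the AS rats, which were the lowest group in the summed share of long genes.

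Between the groups other than AS, few long genes differed. In ASR vs CT, 2 long genes were higher (1.83%, compared with 2.27% of all genes tested) and 1 was lower (0.917%, compared with 2.64%), with a median difference of -0.03 (log2). In DSR vs CT, 4 were higher (3.67%, compared with 2.76%) and 1 was lower (0.917%, compared with 1.87%), with a median of 0.06 and 76 of the 109 long genes positive. In ASR vs DSR, 0 were higher (2.25% of all genes tested) and 4 were lower (3.67%, compared with 2.04%), with a median of -0.11 and 85 of the 109 long genes negative. The counts were therefore near those of all genes, while the medians of DSR vs CT and ASR vs DSR compare with 0.0018 and -0.0045 for all genes tested. These medians moved with single rats. Without DSR replicate 2 the median was -0.05 in ASR vs DSR and 0.03 in DSR vs CT, and DSR vs CT gave 0.03, 0.10 and 0.02 without CT replicates 2, 5 and 6. In ASR vs CT the sign turned without CT replicate 5 (0.03).

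The 4 long genes that were lower in ASR than in DSR rats included the longest gene, which differed by -0.13 on the log2 scale (standard error 0.06), the second longest, with -0.19 (standard error 0.08), and ENSRNOG00000045639, with -0.23 (standard error 0.10). After Benjamini-Hochberg correction of the edgeR quasi-likelihood test, 0 long genes passed an adjusted p of 0.05 in these 3 comparisons, and DESeq2 gave 0 on all groups and on the 2 groups, where 0.086% of all genes passed for ASR vs CT, 0.00408% for DSR vs CT and 0% for ASR vs DSR. At an unadjusted p under 0.05 there were 3 in ASR vs CT (2.75%, compared with 4.92% of all genes tested), 5 in DSR vs CT (4.59%, compared with 4.63%) and 4 in ASR vs DSR (3.67%, compared with 4.29%). These small counts moved with single rats, to 11 in ASR vs CT without CT replicate 2 (7.85% of all genes tested), 15 in DSR vs CT without CT replicate 5 (7.44%) and 15 in ASR vs DSR without DSR replicate 4 (11.3%). The ASR vs DSR shift lay in title number 7, where the median difference was -0.28 (3 ASR and 2 DSR rats), and was 0.02 in title number 8 (3 and 3 rats). For DSR vs CT the medians were 0.13 and 0.0025, and for ASR vs CT -0.08 and 0.01, in title numbers 7 and 8.

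The long genes stood at the end of a gradient of span. With the same CPM minimum in each class, 4541 genes spanned under 10 kb, 6315 spanned 10 to 50 kb, 2025 spanned 50 to 100 kb, 1219 spanned 100 to 200 kb and 583 spanned 200 to 500 kb. In AS vs CT the share that was lower in AS rats was 11.1, 11.1, 12.9, 17.8 and 21.8% in these classes and 31.2% in the long genes. In DSR vs AS the share that was higher in DSR rats was 9.03, 11.7, 20.5, 24.0 and 32.4%, and 39.4% in the long genes. In ASR vs AS the share that was higher in ASR rats was 4.27, 4.43, 6.17, 8.78 and 11.3%, and 19.3% in the long genes. In these 3 comparisons each class had a share at least as high as the class of shorter genes before it, so that the pattern was not confined to genes past 500 kb. Genes under 10 kb leaned the other way, with median log2 fold changes of 0.02, -0.04 and -0.03. In DSR vs AS 15.9% of them were lower in DSR rats, compared with 5.5% of the long genes. The medians also moved steadily with span in DSR vs CT, from -0.03 under 10 kb to 0.06 in the long genes. In ASR vs DSR they moved from 0.01 to -0.11, and in ASR vs CT they showed no steady trend.

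**Figure D4:**
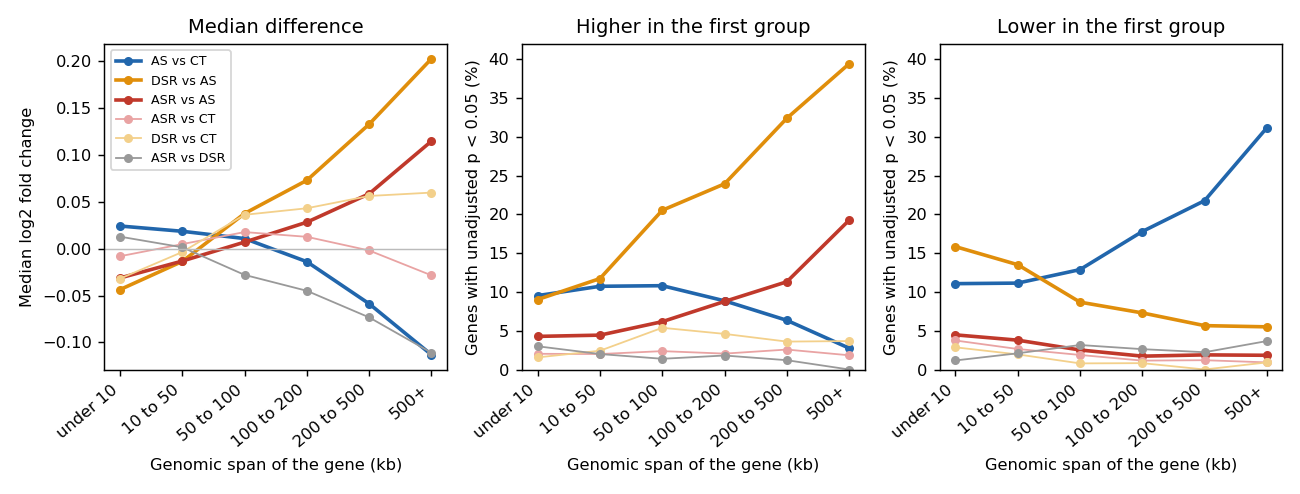
Differences between groups by gene span. The horizontal axis is the span class in kb; the vertical axes are the median log2 fold change of the class (left) and the percent of its genes that were higher (middle) or lower (right) in the first group named, at an unadjusted p under 0.05 in edgeR's quasi-likelihood test. The share that was higher in DSR vs AS goes from 9.03% under 10 kb to 39.4% at 500 kb or more, and the share that was lower in AS vs CT from 11.1 to 31.2%.

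Within the long genes themselves, a larger span did not go with more calls. In DSR vs AS, 22 of the 54 long genes above the median span and 21 of the 55 at or below it were higher at an unadjusted p under 0.05, and in AS vs CT 17 genes on either side of the median were lower. By exon length the long genes were split unevenly in 2 of the comparisons. In DSR vs AS, 27 of the 54 long genes with exons above the median length of 4375 bp were higher, compared with 16 of the 55 others. In AS vs CT the numbers of lower genes were 21 and 13. In ASR vs AS the numbers of higher genes were 10 and 11.

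**Figure D5:**
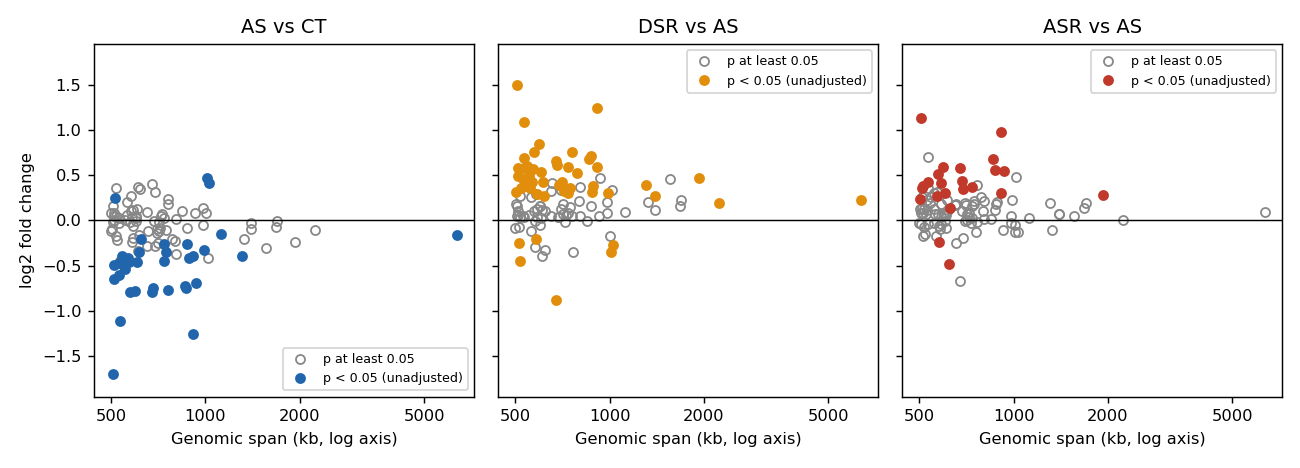
Log2 fold change of each of the 109 long genes against its span in kb (log axis) in AS vs CT, DSR vs AS and ASR vs AS. Filled points had an unadjusted p under 0.05 in edgeR's quasi-likelihood test and open points did not. In AS vs CT 34 filled points lie below 0 and 3 above, in DSR vs AS 43 lie above and 6 below, and in ASR vs AS 21 lie above and 2 below.

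Genes under 100 kb of a like level or exon length did not show the same shares. In DSR vs AS, 21.9% of the long genes under 10 CPM were higher in DSR rats, compared with 7.52% of the genes under 100 kb at that level. At 10 to 50 CPM the shares were 47.5 and 11.7%, and at 50 CPM or more 45.9 and 18.3%. By exon length they were 21.1 and 8.79% under 2.5 kb, 38.9 and 15.1% from 2.5 to 5 kb, and 50 and 24.1% at 5 kb or more. In AS vs CT the shares that were lower in AS rats were 18.8 and 6.61% under 10 CPM, 35 and 10.7% at 10 to 50 CPM, and 37.8 and 18% at 50 CPM or more. By exon length they were 21.1 and 9.6%, 31.5 and 13.5%, and 36.1 and 15.4%. In each of these classes the long genes had the higher share, on numbers of long genes from 19 to 54.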

How the data were processed

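RNA from the dSTR of 23 rats was enriched for poly(A) RNA and sequenced. Per the labels, the authors used Trimmomatic 0.36 for trimming, STAR 2.5.2b for alignment to Rnor6.0 and featureCounts of Subread 1.5.2 for counting in exons, and deposited raw counts per gene without normalization. Computed here in R 4.3.3 with edgeR 4.0.16 were TMM-scaled CPM and quasi-likelihood tests in a single fit of the 4 groups (residual degrees of freedom 19), on 16275 genes kept by filterByExpr (minimum count 10, minimum total count 15). Log2 CPM used a prior count of 2. Mean CPM of a gene over all libraries, its level per kb and the level classes used unscaled library totals. The Benjamini-Hochberg adjustment ran over all genes tested. With totals from 18967015 to 28137676 counts, genes near 1 CPM hold few counts per library and carry counting error. A p-value of the quasi-likelihood test sets a difference between groups against the spread between rats, estimated in the single fit of the 4 groups.

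The long genes, lists and tests were chosen with earlier results of these data known. The rule for named genes asked for the smallest p in AS vs CT and DSR vs AS (8 each) and in the other comparisons (up to 3), the 10 longest and the 5 with the highest level per kb. Because the reference table held 0 rows with an Ensembl identifier, the lists by role and the cell type markers could not be applied and no promoter or protein sequence could be matched. Printed identifiers were limited to 4, all meeting the rule, and a few other genes are given by position. The gene with the largest fall, and those higher in AS or lower in DSR rats, were singled out after their values were seen.

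The alternatives tried were DESeq2 1.42.0 (all groups, or only 2), edgeR on 2 groups, RLE factors, no filter, the title number as a covariate, spans of at least 300 or 1000 kb, only the 102 long genes without shared exon sequence, and each rat left out. Thinning to the smallest library, leaving out mitochondrial genes, and only the 98 long genes whose longest intron was at most 50% of the span were added after the data were seen. The fits were tested on simulated data in which genes varied independently, which does not cover genes that move together across rats.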

Additional observations from a re-analysis of the deposited data

Results flagged for a closer look

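In each group of 5 or 6 rats, library measures and the CPM of some long genes were searched for a single rat far from the rest. These genes were the 4 given by identifier, the longest, the second longest and the most abundant. The search used the ratio of the rat's gap to the group's whole range. Of 48 sets of values, 4 held such a rat, and chance alone marks about 1 in 20 sets, or 2.4 of 48. AS replicate 2 had 19.6% of its counts in mitochondrial genes, compared with 11.9 to 13.3% in the other AS rats. CT replicate 3 had 20398 genes with at least 1 count, compared with 20024 to 20122 in the other CT rats. ENSRNOG00000042536 stood at 11.4 CPM in AS replicate 5 and at 7.52 to 8.77 CPM in the other AS rats. The most abundant long gene, on chromosome 7, stood at 747.4 CPM in AS replicate 1 and at 394.1 to 520.1 CPM in the other AS rats. The other genes given by position were not part of this search. Among them was the gene with the largest fall in AS vs CT. It stood at 14.2 CPM in AS replicate 1 and at 2.26 to 4.75 CPM in the other AS rats.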

How the results depend on the processing

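The median log2 fold change of the long genes moved by less than 0.11, the spread between rats, under every alternative, but that yardstick is as large as most of these medians. With single rats left out the medians ran from -0.19 to -0.09 in AS vs CT, 0.15 to 0.25 in DSR vs AS, 0.09 to 0.14 in ASR vs AS, -0.07 to 0.03 in ASR vs CT, 0.02 to 0.10 in DSR vs CT and -0.15 to -0.05 in ASR vs DSR. Spans of at least 1000 kb gave medians of 0.07 for ASR vs AS, -0.07 for ASR vs DSR and 0.03 (a change of sign) for ASR vs CT, spans of at least 300 kb gave -0.0060 for ASR vs CT, and the title number as a covariate gave -0.06 there. The sign of the other medians held, and 0 of the differences of the 4 genes given by identifier reversed. The share of long genes called moved more. At an adjusted p under 0.05 it went from 0% with edgeR to 16.5% in AS vs CT and 14.7% in DSR vs AS with DESeq2 on all groups, and to 18.3 and 29.4% with DESeq2 on the 2 groups, and with single rats left out it ran from 0 to 24.8% and from 0 to 28.4%. For 1.5-fold changes, spans of at least 300 kb (347 genes) gave 6.92% in AS vs CT in place of 11.9%, and 0.288% in ASR vs CT and in ASR vs DSR in place of 0%. Spans of at least 1000 kb (15 genes) gave 0% in AS vs CT, DSR vs AS and ASR vs AS. ASR vs AS gave 5.5% with DESeq2 or edgeR on the 2 groups in place of 3.67%. Leaving out single rats gave 4.59 to 21.1% in DSR vs AS, 1.83 to 11% in ASR vs AS and 0 to 0.917% in ASR vs DSR. At an unadjusted p under 0.05, spans of at least 1000 kb gave 6.67% in ASR vs AS (21.1% otherwise), 13.3% both in ASR vs CT (2.75%) and in ASR vs DSR (3.67%), and 0% in DSR vs CT (4.59%), where 15 genes make each step large. ASR vs CT gave 5.5% with DESeq2 and 4.59% with edgeR on the 2 groups, 1.83% with the title number as a covariate, 4.32% at 300 kb and 1.02% for the long genes whose longest intron was at most 50% of the span. DSR vs CT gave 1.83% with DESeq2 or edgeR on the 2 groups, 2.75% with RLE factors or thinned libraries and 0.917% with the title number. ASR vs DSR gave 1.96% without shared exon sequence and 2.04% for the long genes whose longest intron was at most 50% of the span. With single rats left out the shares ran from 25.7 to 51.4% in DSR vs AS, 11.9 to 25.7% in ASR vs AS, 1.83 to 10.1% in ASR vs CT, and 0 to 13.8% both for DSR vs CT and for ASR vs DSR. The cause of these moves was not tested beyond the numbers of genes and rats given. For single genes, 4 differences lost their unadjusted p under 0.05 under the other alternatives and 17 when a rat was left out. No paired analysis was possible because no rat code is shared between the groups.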

Other observations

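Shorter genes next to or inside the long genes were also read. Of the genes expressed at the same CPM minimum, 37 lay wholly inside a long gene, with a median span of 19692 bp. Of these, 6 were higher in DSR than in AS rats at an unadjusted p under 0.05 (16.2%), with a median log2 fold change of 0.04, and 5 were lower in AS than in CT rats (13.5%), with a median of 0.05. The nearest expressed genes on each side of a long gene numbered 204, with a median span of 47571 bp. Of these, 38 were higher in DSR vs AS (18.6%, median 0.02) and 30 were lower in AS vs CT (14.7%, median 0.01). For comparison, 39.4% of the long genes were higher in DSR vs AS and 31.2% were lower in AS vs CT. Of all genes tested the shares were 13.3 and 11.8%. They were 11.7 and 11.1% for genes spanning 10 to 50 kb, and 20.5 and 12.9% for those spanning 50 to 100 kb. The median span of the nearest genes lay close to the border between these span classes. Whether the shares of the inside and nearest genes differ from those of the long genes or of the span classes was not tested.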
